A study of Mus musculus with 2 samples.

Results

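The genes described here are 9 microRNA (miRNA) genes of the imprinted Dlk1-Dio3 region on mouse chromosome 12 that lie before Mir379 and are not antisense to Rtl1. They were chosen by name and place, by a rule that used no measured level, although earlier results of these data were known. The 9 are a chosen list and not every such gene. A further 5 counted genes before Mir379 are in neither this list nor the list antisense to Rtl1 used here. All 9 were among the 2202 miRNA genes counted in each library. In chromosomal order they are Mir770, Mir673, Mir493, Mir337, Mir540 and Mir665, called the Meg3 side here, and Mir341, Mir1188 and Mir370, called the Rian side. Small RNA below 30 bases, per the labels, was sequenced from the gastrocnemius, the large calf muscle, at postnatal day 4 in B6CASTF1/J females. B6CASTF1/J animals are the first-generation offspring of a C57BL/6J and CAST/EiJ cross. There was 1 group with 2 libraries, and the labels give each a female with its own number but list both under a shared donor record. No condition could therefore be compared, and the differences below are between these 2 libraries.

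The Dlk1-Dio3 region carries protein-coding genes that are active on the paternal chromosome and long noncoding transcripts, Meg3, Rian and Mirg, that are active on the maternal chromosome. Its miRNAs are cut from such maternal transcripts by Drosha and Dicer, and each hairpin can yield a mature miRNA from its 5p and its 3p arm. A mature miRNA finds its targets mainly through its seed, the bases near its 5′ end. In skeletal muscle the miRNAs of the region are known to be abundant in fetal, neonatal and regenerating tissue, and the transcription factor MEF2A is known to promote their expression.

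The 9 genes stretched over 54.6 kb of mm10, all on the plus strand, and ended 90.7 kb before Mir379. Mir770, at chr12:109563692-109563785, lay in an exon of 1 of the 11 annotated Meg3 transcripts and within the span of 4 of them. The next 5, from Mir673 at chr12:109571990-109572080 to Mir665 at chr12:109586314-109586407, overlapped no annotated long noncoding or protein-coding gene and stood between the annotated ends of Meg3 and Rtl1. Mir337, Mir540 and Mir665 stood close together, with 194 bases between Mir337 and Mir540 and 167 bases between Mir540 and Mir665. Mir341 at chr12:109611500-109611595, Mir1188 at chr12:109611822-109611941 and Mir370 at chr12:109618258-109618336 each lay in an intron of Rian, within the span of 2 of its 20 annotated transcripts. Mir341 and Mir1188 were only 226 bases apart.

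RefSeq (GRCm38.p6) listed a hairpin and both arms for all 9 genes, and each hairpin was identical to the sequence used by the annotation that the counts rest on. The mature arms of the 3 genes with the highest levels are shown first, 5′ to 3′, with the seed (bases 2 to 8) in capitals.
miR-540-5p: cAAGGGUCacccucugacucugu
miR-540-3p: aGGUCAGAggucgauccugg
miR-337-5p: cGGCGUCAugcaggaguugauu
miR-337-3p: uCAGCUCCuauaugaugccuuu
miR-493-5p: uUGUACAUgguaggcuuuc
miR-493-3p: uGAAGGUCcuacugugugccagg

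The 18 arms of the 9 genes had 18 different seeds, so no pair of these genes forms a seed family. Against all 1679 mature mouse miRNAs in the same table, 15 of the 18 seeds occurred in no other miRNA. The other 3 arms, shown with the seed in capitals, each shared it with 1 further miRNA.
miR-673-5p: cUCACAGCucugguccuuggag
miR-540-3p: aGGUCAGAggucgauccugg
miR-370-5p: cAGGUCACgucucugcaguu
The seed of miR-673-5p also occurs in miR-6985-3p, whose gene had 1 count in library 1 and 0 in library 2. The seed of miR-540-3p also occurs in miR-6915-5p, whose gene had 4 and 6 counts. The seed of miR-370-5p also occurs in miR-1193-3p, whose gene lies in the Mir379 to Mir410 array of the same region. In counts scaled to a total of 1000000 gene counts per library (CPM), Mir370 had 507 in library 1 and 548 in library 2, against 817 and 661 for Mir1193. The counts are per gene and do not say which arm the reads came from, so the level of each seed was not measured.

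Own-strand reads of miRNA genes came to 5569392 for library 1 and 4336759 for library 2, and all levels are given as CPM of these counts. Multimapping reads, 36.9% and 37.6% of all reads, were assigned to no gene. The muscle label was checked on listed markers, and 8 of 9 skeletal muscle genes passed 2 CPM in each library. Mir206, a miRNA of skeletal muscle, led all genes at 129336 and 119323 CPM. Of 11 neural marker genes 4 were detected by the same limit, and the sum of the 11 was 876 CPM (library 1) and 1200.4 CPM (library 2). Mir9-2, Mir124a-2 and Mir124a-3 were listed at 0 in both libraries, but the Mir9 and the Mir124a genes are copies with a shared mature miRNA, whose multimapping reads belong to no gene, so these 0 values say nothing of its level.

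All 9 genes were detected, meaning at least 2 CPM in each library, as were 15.2% of all counted genes. Mir540 and Mir337 had the highest levels, Mir493 followed, and Mir1188 was far below the rest. Levels of 1000 CPM or more in both libraries were reached by 7 of the 9, against 3.77% of all counted genes. Of the 2202 counted genes, however, 1462 had no count in either library. Among the 335 detected genes 83 reached 1000 CPM in both. The 9 genes together held 2.42% of the gene counts in library 1 and 2.85% in library 2, a mean of 2.63% ± 0.305 (SD, n = 2). The exact 95% intervals of these shares were 2.41 to 2.43% and 2.83 to 2.87%. All intervals given here describe counting error alone and hold no spread between animals. The reads carry no molecular identifiers and need not stand for separate molecules. Even for counting error the intervals may therefore be too narrow, and the p-values below too small. In whole tissue, fewer cells of a type and less RNA per cell cannot be told apart.

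Mir540, cut from the middle hairpin of the tight group before Rtl1, had 31029 counts in library 1 and 32722 in library 2. This corresponded to 5571 CPM (95% interval 5510 to 5634) in library 1 and 7545 CPM (7464 to 7627) in library 2, a mean of 6558 ± 1396 CPM (SD, n = 2). Its neighbour Mir337 had 31784 and 28568 counts, or 5707 CPM (5644 to 5770) and 6587 CPM (6511 to 6664), a mean of 6147 ± 623 CPM. The pair changed places between the libraries, Mir337 being the higher in library 1 and Mir540 in library 2, and their mean ± SD ranges overlapped, so they were not ordered. Together they made up 48.1% ± 2.09 (SD, n = 2) of the counts of the 9 genes. Among all counted genes Mir337 stood at rank 35 and Mir540 at rank 36 in library 1, and at ranks 30 and 27 in library 2.

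Mir493, whose human counterpart is known to repress IGF1R in colon cancer cells, reached 4326 CPM (4271 to 4381) in library 1 and 4550 CPM (4487 to 4614) in library 2, a mean of 4438 ± 159 CPM (SD, n = 2). It lay below Mir540 and Mir337 and above all other members in both libraries, with intervals that did not overlap. Mir341, the first of the Rian side, had 2789 CPM (2745 to 2833) and 3424 CPM (3369 to 3479). Mir665, the last of the Meg3-side members, had 2767 CPM (2724 to 2811) and 2837 CPM (2787 to 2887). Mir341 and Mir665 had overlapping intervals in library 1 and separate ones in library 2, and their mean ± SD ranges overlapped, so they too were not ordered. Although Mir665 lies next to Mir540, its level was lower, by 2.01-fold in library 1 and 2.66-fold in library 2.

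The outermost Meg3-side genes were lower. Mir673 reached 1468 CPM (1436 to 1500) in library 1 and 1698 CPM (1659 to 1737) in library 2, and Mir770, the hairpin within the Meg3 transcript itself, reached 1021 CPM (995 to 1048) and 1267 CPM (1234 to 1301). From Mir770 to Mir673, Mir493 and Mir337 the level was thus higher at each step along the chromosome in both libraries. Mir370, whose human counterpart is known to lower the fatty acid oxidation gene CPT1A in liver cells, was at 507 CPM (489 to 526) and 548 CPM (526 to 570). In both libraries Mir673, Mir770 and Mir370 kept that order with intervals apart.

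**Figure D1:**
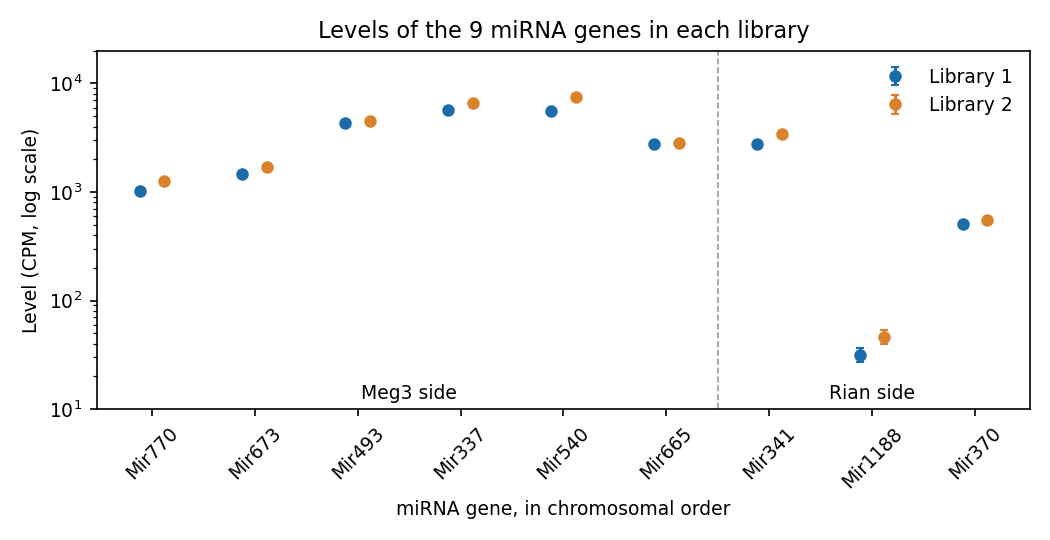
Level of each of the 9 miRNA genes (CPM, log axis) in chromosomal order, with 1 point per library and bars for the exact 95% Poisson interval. Mir337 and Mir540 form the top, between 5571 and 7545 CPM, and Mir1188 stands alone at 31.8 and 46.1 CPM.

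Mir1188 was the lowest of the 9, with 177 counts in library 1 and 200 in library 2. This gave 31.8 CPM (27.3 to 36.8) in library 1 and 46.1 CPM (39.9 to 53.0) in library 2, a mean of 38.9 ± 10.1 CPM (SD, n = 2). The adjacent Mir341 was 87.7-fold higher in library 1 and 74.2-fold higher in library 2. Both hairpins are shown because, of all adjacent members, this pair differed most in level, and the mature arms are in capitals.
Mir341: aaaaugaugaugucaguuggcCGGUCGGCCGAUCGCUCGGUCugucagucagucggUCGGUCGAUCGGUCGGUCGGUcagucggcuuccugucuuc
Mir1188: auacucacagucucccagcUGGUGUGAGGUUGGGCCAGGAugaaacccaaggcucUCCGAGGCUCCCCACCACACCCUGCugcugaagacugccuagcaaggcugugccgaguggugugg
Within the Mir341 hairpin the longest stretch present more than once, overlaps allowed, was 11 bases, against a median of 6 bases over the 335 detected genes. The minimum free energies computed for the folded hairpins were -42.0 kcal/mol for Mir341 over 96 bases and -42.2 kcal/mol for Mir1188 over 120 bases. Per base they were -0.44 kcal/mol for Mir341 and -0.35 kcal/mol for Mir1188, the weakest of the 9. A link between folding and level was not tested.

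Within the region the 9 genes were intermediate in median level, but this depended on which genes were listed as antisense to Rtl1. The region from Mir770 to Mir410 held 64 counted genes, of which the 7 listed as antisense to Rtl1 and the 43 of the Mir379 to Mir410 array formed the comparison. Among the 7, Mir3071 is annotated on the minus strand, over Mir136. The rest of that list is on the plus strand, so Mir3071 is not antisense to Rtl1 as they are. The 5 other counted genes of the region were left out of the comparison. Of these, 2 were detected and 2 had no count. The median level of the 9 genes was 2767 CPM in library 1 and 2837 CPM in library 2. It was 6946 and 7617 CPM for the genes listed as antisense to Rtl1 and 735 and 715 CPM for the array. The antisense list left out Mir3070a, at 4.85 and 3.46 CPM, and Mir3070b, at 1.26 and 2.31 CPM. These 2 genes share 43 bases, so their reads that multimap belong to no gene and their levels are uncertain. With both in the list at these values, its middle gene would be Mir136, at 434 and 368 CPM. That is below the medians of the 9 genes and of the array. None of the 9 was at 0, whereas Mir432 of the antisense genes and 6 genes of the array, 4 of them annotated on the minus strand, had no count. The top of the range was lower, however: the member with the highest mean, Mir540, averaged 6558 CPM, against 44397 ± 788 CPM (SD, n = 2) for Mir127, which is antisense to Rtl1 and known to direct cleavage of its transcript, and 73057 ± 5406 CPM for Mir411 of the array, which shares 21 bases with Mir758 and so has an uncertain level. The 9 genes held 7.32% of the region's counts in library 1 (95% interval 7.28 to 7.36) and 8.25% in library 2 (8.20 to 8.29). The genes listed as antisense held 26.5% and 25.7%, and the array 66.2% and 66.0%. Levels of 1000 CPM or more in both libraries were reached by 4 of the 7 listed as antisense and 18 of the 43 of the array. Genes are not replicates, so these list values are a description and no test was made between the lists.

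**Figure D2:**
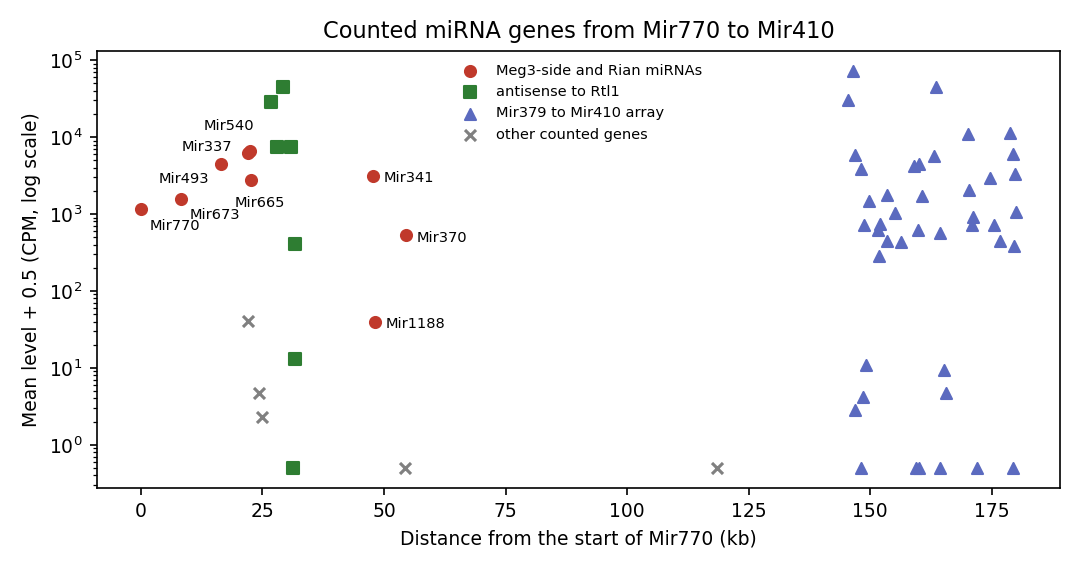
Mean level over the 2 libraries plus 0.5 (CPM, log axis) of the 64 counted miRNA genes from Mir770 to Mir410 against distance from the start of Mir770 (kb), coloured by list. The 9 genes, labelled, run over the first 54.6 kb, and 8 of them lie between 527 and 6558 CPM.

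On the Meg3 side the 6 genes held 6.31% of the region's counts in library 1 and 7.08% in library 2, and on the Rian side the 3 genes held 1.01% and 1.16%. All 6 Meg3-side genes passed 1000 CPM in each library, and on the Rian side 1 of 3 did, namely Mir341. The member with the highest mean, Mir540, was closest in level to Mir298 on chromosome 2, Mir139 on chromosome 7 and its own neighbour Mir337. The likeness was the summed absolute difference in log2(CPM + 0.5) over the 2 libraries, which was 0.20, 0.22 and 0.23 for these genes, and it speaks of level alone.

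Sequence features not used in choosing the genes were also described. The hairpins of the 9 were rich in G and C, with a median of 59.4% and a lowest value of 52.6% in Mir337. The 45 other detected genes of the region had a median of 45.1%, and 9 of those 45 were at or above the lowest member. Among the detected genes listed as antisense to Rtl1, Mir431 (60.4%), Mir433 (56.5%) and Mir127 (57.1%) were above it. Mir434, Mir136 and the minus-strand Mir3071 were below it. Of all 335 detected genes, 130 (38.8%) were at or above the lowest member. The highest G and C content was that of Mir770 at 70.2%, and the gene with the highest mean level, Mir540, was at 61.2%. The median folding energy per base was -0.51 kcal/mol for the 9, against -0.41 for the other detected genes of the region and -0.43 for all detected genes.

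**Figure D3:**
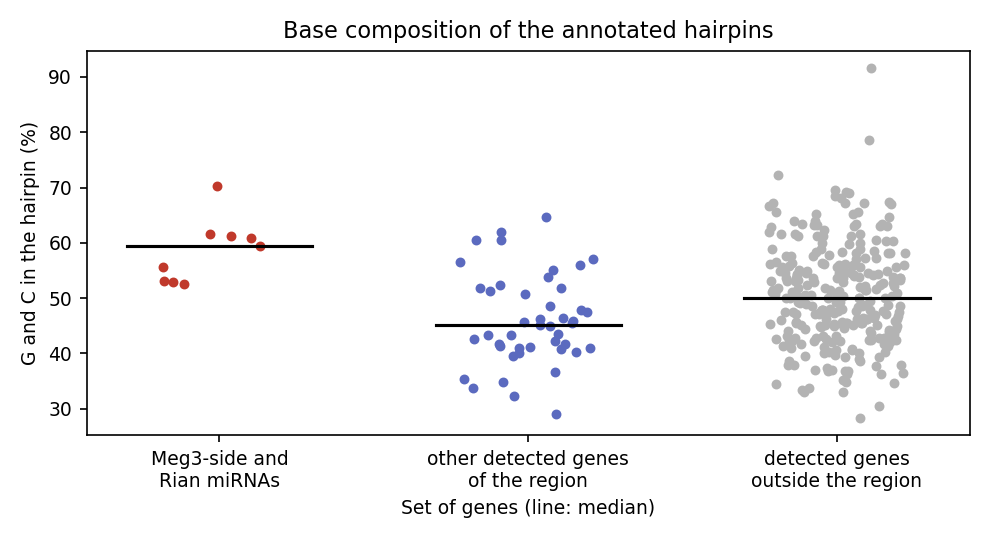
Share of G and C bases in the annotated hairpin (%) for the 9 miRNA genes, the 45 other detected genes of the region and the detected genes outside it, with 1 point per gene and a line at the median. The 9 genes all lie above 52%, while the median of the other region genes is 45.1%.

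None of the 9 hairpins shared 16 bases or more with another counted gene outside its own locus, in either orientation. Among all 335 detected genes 107 shared at least 16 bases, and 76 shared at least 20. None of the 18 mature arms occurred in another annotated transcript of the same strand, other than Meg3 for the arms of Mir770, which lies in a Meg3 exon. Copies elsewhere in the genome were not searched. Of the 64 counted genes of the region, 7 shared 20 bases or more with another counted gene, and none of the 9 was among them.

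Mir337 was the exception in how strand entered its count. A second miRNA gene, Mir3544, lies inside it on the minus strand at chr12:109585813-109585873, and its interval covers both arms of miR-337. The arms of miR-3544, shown with seeds in capitals, lie opposite those of miR-337, on the other strand, with 21 genomic positions in common between miR-3544-5p and miR-337-3p and 17 between miR-3544-3p and miR-337-5p.
miR-3544-5p: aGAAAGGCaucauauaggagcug
miR-3544-3p: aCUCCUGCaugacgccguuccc
Counted on its own strand Mir337 had 31784 reads in library 1 and 28568 in library 2, and exactly these numbers stood as opposite-strand reads of Mir3544. When strand was ignored, 5 and 18 reads were assigned to Mir337 and 0 and 0 to Mir3544. All own-strand reads of Mir337 also overlapped Mir3544 and fell in the line for ambiguous reads. Mir3544 itself had 233 and 171 own-strand reads, or 41.8 and 39.4 CPM, so that Mir337 was 136-fold and 167-fold higher. The opposite-strand count of Mir337, 238 and 189, exceeded the own-strand count of Mir3544 by 5 and 18 reads. These opposite-strand reads outside Mir3544 were thus the ones assigned to Mir337 without regard to strand. The other 8 genes overlapped no counted gene, and together they had 2 opposite-strand reads beside 102927 own-strand reads in library 1 and 0 beside 95036 in library 2.

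The libraries were compared gene by gene on their counts with a two-sided exact binomial test, for totals scaled by edgeR's trimmed mean of M values (TMM), with Benjamini-Hochberg adjustment over the 335 detected genes at a threshold of 0.05. Of the 9 genes 7 were lower in library 1, 0 were higher and 2 were not called, although Mir493 and Mir665 turned to the other side with TMM factors taken over all counted genes, and Mir665 also with DESeq2 size factors. Of all detected genes 28.7% were lower in library 1, 26.9% were higher and 55.5% were called in either direction. The 45 other detected genes of the region went both ways, with 14 lower in library 1, 19 higher and 12 not called. Relative to the region's own total, 8 of the 9 genes had a smaller share in library 1 than in library 2, beside 13 of the 45 other detected genes of the region. The exception was Mir665 at 0.837% and 0.821%. This count went by sign without counting error, and Mir493 at 1.309% and 1.3165% and Mir370 at 0.1535% and 0.1585% were close. The share uses no scaling factor, but it depends on the region's total, most of which is the array. The test compares these 2 libraries beyond counting error and no conditions, and with 1 library per numbered female, animal and library preparation cannot be told apart.

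The differences were small. Mir540 had a log2 ratio of library 1 over library 2 of -0.42 (95% interval -0.44 to -0.39, adjusted p = 5.62e-287 by the exact binomial test), which 78 of the 335 detected genes exceeded in size. Mir1188 had the largest ratio at -0.51 (-0.81 to -0.22, adjusted p = 0.00142 by the same exact test), on the fewest counts. Mir770 at -0.29 (-0.34 to -0.24) and Mir341 at -0.27 (-0.31 to -0.24) followed. Mir673 and Mir337 lay at -0.19 and -0.18. Mir493, with 24091 counts in library 1 and 19732 in library 2, passed the test at only -0.05 (-0.08 to -0.02). None of the 9 exceeded a 1.5-fold difference, and none of the 45 other detected genes of the region did, against 15.2% of all detected genes. That share is not matched for level. The detected genes had a median of 121 CPM in library 1 and 119 CPM in library 2, below each of the 9 except Mir1188. Counting error is larger at low counts. Mir370 at -0.09 (-0.17 to -0.01, adjusted p = 0.0505 by the exact binomial test) and Mir665 at -0.01 (-0.05 to 0.02, adjusted p = 0.572) were not called.

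**Figure D4:**
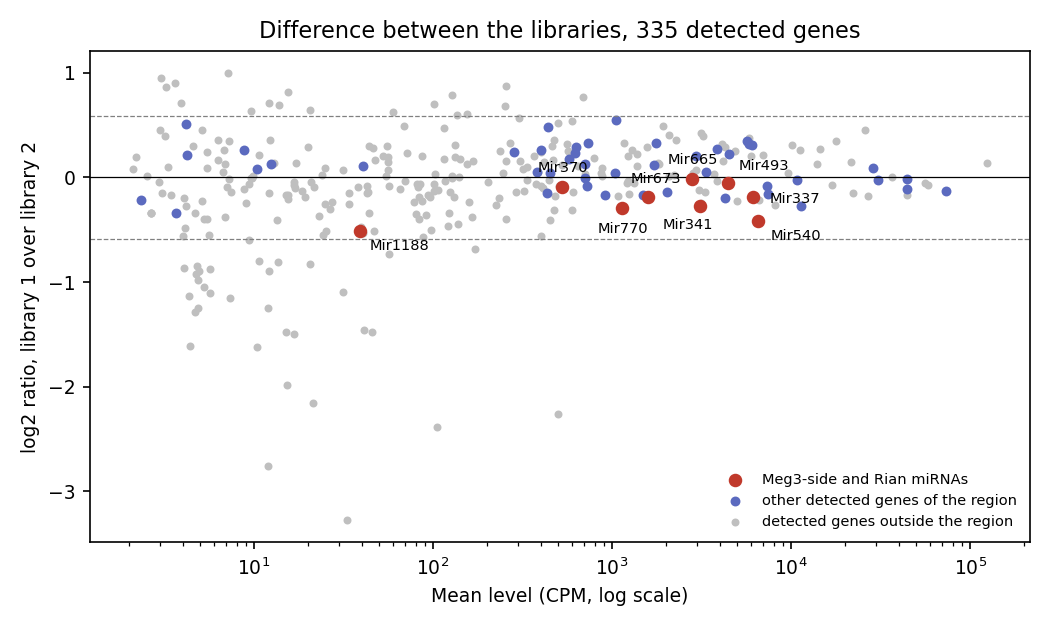
Log2 ratio of library 1 over library 2, on TMM-scaled totals, against mean level (CPM, log axis) for 335 detected genes, with dashed lines at 1.5-fold. All 9 labelled genes lie below 0 and inside the dashed lines, between -0.51 and -0.01, where Mir493 and Mir665 pass 0 if the factors are taken over all counted genes, and Mir665 also with DESeq2 size factors.

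Listed markers of other cell types also differed between the libraries. Summed levels were 1013 CPM in library 1 and 652 CPM in library 2 for 5 leukocyte genes, 29519 and 21932 CPM for 2 endothelial genes, and 199 and 850 CPM for 4 liver genes. Skeletal muscle genes summed to 130998 and 120702 CPM, of which Mir206 alone made up 129336 and 119323 CPM. Mir1a-1 shares 28 bases with Mir1a-2, and Mir133a-1 shares 31 with Mir133a-2, so their reads that multimap belong to no gene. The 2 smooth muscle genes summed to 25509 and 29100 CPM. Erythroid and epithelial genes summed to 96.8 and 267 CPM in library 1 and to 119 and 375 CPM in library 2, beside the sums of the neural genes given with the marker check. The part of these in the differences of the 9 genes was not tested.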

How the data were processed

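The authors deposited raw read counts per gene for each library, on mm10 and GENCODE M21 per the file headers and labels. The aligner and counter are not given in the sources that were used here. Of the 3 count columns (strand ignored, own strand, opposite strand, as their sums show) the own-strand column was used. The 4 lines that name no gene, left out of totals, took 46.6% (library 1) and 48.9% (library 2) of reads. TMM factors came from edgeR 4.0.16 over genes with at least 2 CPM in each library, and DESeq2 1.42.0 size factors (R 4.3.3) were an alternative. With 1 group, edgeR's quasi-likelihood test could not be run, and an exact binomial test took its place. It was tried on simulated counts that held counting error alone, which cannot show how it behaves with spread between animals. Level intervals are exact Poisson and share intervals Clopper-Pearson, at 95%. Hairpins were folded with RNAfold 2.7.2, and Python 3.11.15 and scipy 1.17.1 served for the rest. The genes, lists and tests were chosen with earlier results of these data known. Named genes were the 9, the highest and lowest of each region list, the 3 nearest in level to the top member, Mir206, and genes overlapping a member or sharing its seed. Others, among them Mir758 and Mir882, were named after their values were seen. Mir3070-1 and Mir3070-2 of the antisense list are spelled Mir3070a and Mir3070b in the annotation and were counted among the other genes of the region.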

Additional observations from a re-analysis of the deposited data

Results flagged for a closer look

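Opposite-strand reads lie outside the own-strand counts used for the levels. Mir337 had 238 of them in library 1 and 189 in library 2, above the 3 counts that a count of 0 allows, and no other of the 9 genes had more than 1. Mir3544, annotated on the other strand inside Mir337, had 233 and 171 own-strand reads.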

How the results depend on the processing

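All 9 genes stayed detected at 10 CPM, at 1 count in either library and in each library alone, and 8 did without regard to strand. There Mir337 averaged 2.87 CPM, all of it from opposite-strand reads. The summed share of gene counts, 2.63%, was 2.30% without regard to strand and 1.37% of all reads. The share of the region's counts, 7.78% on average, was 6.49% without regard to strand and 12.2% without the region's 7 genes that share 20 bases or more with another gene. The number called between libraries, 7, was 6 with DESeq2 size factors, 8 with plain totals, 8 among genes at 10 CPM or more, 7 without a filter, 5 without regard to strand and 7 with TMM factors over all counted genes, a setting chosen after seeing the data. Under that last setting the log2 ratio of library 1 over library 2 reversed for Mir493, to 0.019, and for Mir665, to 0.056, where Mir665 was called. Over all detected genes the split of higher against lower in library 1, 90 and 96, was then 117 and 74, and 105 and 81 with DESeq2. With DESeq2 factors Mir665, not called, reversed to 0.018 and Mir493 at -0.02 was no longer called, and with plain totals Mir370 at -0.11 was. Pseudocounts of 0.1, 0.5 and 5 CPM turned no ratio round. Scaled to all reads, each of the 9 levels was lower, as the larger denominator requires. With a library left out, only single-library values remain and nothing can be tested. No paired analysis was possible because the series has 1 group. Depth limits Mir1188 most, with 177 and 200 counts.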

Other observations

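Close to the 9 genes, 4 further counted genes had few assigned reads or none. Mir3070a and Mir3070b, between Mir665 and the annotated Rtl1 gene, had 27 and 7 counts in library 1 and 15 and 10 in library 2. They share 43 bases, and their reads that multimap belong to no gene, so these low counts leave their levels uncertain. Gm23912, a predicted miRNA gene with 57 bases between it and Mir370, had 0 counts in both libraries, where 3 counts, the limit that 0 allows, would be 0.539 CPM for library 1 and 0.692 for library 2. Mir882, between Mir370 and Mir379, was also at 0 in both.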
